A study of Mus musculus with 8 samples.

Results

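Dmp1, Sost, Mepe, Phex and Fgf23 are genes whose transcripts mark osteocytes, the cells embedded in mineralised bone. They were taken by symbol from a table of 50462 mouse gene identifiers, and all 5 were found in it with at least 1 count in every library. The table comes from RNA-seq of medial knee cartilage caps of wild-type male C57BL/6J mice, with 1 library per mouse. The 4 naïve mice were left untreated and taken at day 0 at 11 weeks of age, and the 4 DMM mice were taken at 17 weeks, 42 days after the medial meniscus of the left knee had been destabilised by cutting its tibial ligament. No sham-operated mice were analysed here, so an effect of surgery and of 6 weeks of age cannot be told apart.

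Osteocytes arise from osteoblasts that become buried in the matrix they make, and their genes fall into a few roles. Dmp1 and Mepe encode secreted acidic phosphoproteins of the SIBLING family, which bind mineral, and lie in 1 gene cluster with Dspp, Ibsp and Spp1. Phex encodes a membrane-bound endopeptidase, and loss of Phex or Dmp1 raises FGF23, the hormone encoded by Fgf23, which makes the kidney excrete phosphate. Sost encodes sclerostin, a secreted inhibitor that binds the Wnt co-receptors Lrp5 and Lrp6 and restrains bone formation. In a knee joint, osteocytes belong to the subchondral bone under the cartilage and not to the cartilage itself.

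The libraries were labelled as cartilage, and chondrocyte markers were present, with the proteoglycan core protein gene Acan at 6962 ± 1277 normalised counts in naïve and 14809 ± 2452 in DMM libraries and the cartilage collagen gene Col2a1 at 23979 ± 9798 and 63821 ± 27070 (SD, n = 4 mice per group). A normalised count is the estimated count divided by the size factor of its library. Markers of bone and of marrow were present as well. The summed normalised count of 9 osteoblast markers ran from 194098 to 335156 in naïve and from 489084 to 639656 in DMM libraries. The sum of 6 erythroid markers ran from 141941 to 281245 and from 72969 to 158366, and that of 8 neutrophil lineage markers from 125210 to 187813 and from 54963 to 112806. Genes were compared between DMM and naïve libraries in a DESeq2 fit over all genes and a gene was called where its p, adjusted by the Benjamini-Hochberg method, was 0.05 or less and its fold change at least 1.5. The log2 of the fold change is given as logFC. Of the 17760 genes tested, 7.75% were called higher in DMM and 5.92% lower, and these shares stand beside each list count below. Of the 8 neutrophil markers, 8 were called lower in DMM, and of the 6 erythroid markers, 5 were. Called higher were 4 of 8 chondrocyte markers, 3 of 3 hypertrophic chondrocyte markers, 4 of 5 synovial and tendon markers and 2 of 5 endothelial markers, and none of the 5 B cell or 4 macrophage markers was called. Of the 6 skeletal muscle markers, DESeq2 gave an adjusted p to 2 and neither was called, and their sum was 1258 normalised counts in DMM 1, against 40.6 to 146 in DMM 2 to 4 and 39.9 to 467 in naïve libraries. Markers of bone and of marrow thus moved with the groups, and their part in the results for the osteocyte genes was not tested. In bulk tissue, changes in the number of osteocytes, in RNA per osteocyte, in the bone taken with the cartilage and in transcripts from other cells cannot be told apart. Libraries held 12479443 to 16548002 estimated counts, and naïve 2 had the fewest genes with 10 or more counts, 16770 against up to 19271.

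The genes sit on 4 chromosomes in GRCm38 (GENCODE vM21 coordinates). Dmp1 (ENSMUSG00000029307) spans chr5:104202613-104214102 on the plus strand and Mepe spans chr5:104325329-104338611 on the same strand. Between them lies Ibsp, which encodes bone sialoprotein, 85069 bases after Dmp1 and 13860 bases before Mepe. Dspp, the dentin sialophosphoprotein gene, lies 22486 bases before Dmp1, and Spp1, the osteopontin gene, 96507 bases after Mepe. Sost spans chr11:101962458-101967015 on the minus strand in 2 exon blocks, between Dusp3 and Meox1. Phex spans chrX:157162075-157415312 on the minus strand in 22 exon blocks, and a small nucleolar RNA gene, a microRNA gene and a processed pseudogene lie within its bounds. Fgf23 spans chr6:127072902-127081408 on the plus strand in 3 exon blocks, with Tigar 3708 bases away.

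The bases just before the transcription start are shown so that the promoters of the abundant genes and of Fgf23, which was near the limit of detection, can be set side by side. Each line gives the 120 bases before the RefSeq start (GRCm38.p6), read 5′ to 3′ on the strand of the gene, at chr5:104202497-104202616 for Dmp1, chr11:101967016-101967135 (minus strand) for Sost, chr5:104325209-104325328 for Mepe, chrX:157415287-157415406 (minus strand) for Phex and chr6:127072782-127072901 for Fgf23. For Dmp1, RefSeq gives a second start 5038 bases from the nearest GENCODE start, and the start used here lies 4 bases from one. Capitals mark TTTAAA, which resembles a TATA box and reads the same on both strands, and CCAAT on either strand, which appears as ATTGG on the reverse.
Dmp1: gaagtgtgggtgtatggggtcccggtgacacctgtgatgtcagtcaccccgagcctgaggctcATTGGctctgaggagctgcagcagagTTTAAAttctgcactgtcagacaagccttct
Sost: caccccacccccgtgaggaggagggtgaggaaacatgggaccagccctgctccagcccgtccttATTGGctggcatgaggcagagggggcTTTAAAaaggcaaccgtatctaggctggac
Mepe: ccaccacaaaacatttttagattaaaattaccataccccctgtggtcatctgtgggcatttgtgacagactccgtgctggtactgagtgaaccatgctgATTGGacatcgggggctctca
Phex: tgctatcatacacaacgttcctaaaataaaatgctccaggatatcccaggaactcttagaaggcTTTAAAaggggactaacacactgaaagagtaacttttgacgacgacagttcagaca
Fgf23: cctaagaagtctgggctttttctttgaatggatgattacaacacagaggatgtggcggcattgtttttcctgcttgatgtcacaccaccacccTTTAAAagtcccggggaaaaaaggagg

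TTTAAA occurred in 4 of these 5 windows. It began 31 bases before the start in Dmp1, 30 in Sost, 27 in Fgf23 and 56 in Phex, and was not found in the Mepe window. Of 32851 RefSeq windows of the same length, 5.2% held TTTAAA, and 1.37% held it between 40 and 16 bases before the start. CCAAT occurred in the windows of Dmp1, Sost and Mepe and in 21.3% of all windows. In Dmp1 and Sost the 2 motifs lay at nearly the same place, with ATTGG beginning at 57 and 56 bases before the start. In Mepe, ATTGG began 21 bases before the start. Both motifs were picked after the letters had been seen, and they do not part the abundant genes from Fgf23, which holds TTTAAA as Dmp1 and Sost do.

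To ask how the osteocyte genes stood 6 weeks after joint destabilisation, the 5 genes were read from the fit over all genes. Dmp1, Phex and Sost rose by 1.75-fold to 2.16-fold. Mepe was 2.08-fold higher in the mean but did not pass the threshold, and Fgf23 was close to the limit of detection in both groups. In all, 3 of the 5 genes were called higher and 0 lower, and 4 of the 5 had an adjusted p. Of the 17760 tested genes, 7.75% were called higher and 5.92% lower (13.7% in all). The gene lists were chosen with earlier results of these data known, so list counts beside these shares are a description. Among the 2393 tested genes with a mean of 1000 normalised counts or more, where the 4 abundant osteocyte genes lie, 7.94% were called higher. The median logFC of the 5 genes was 1.06, and that of all tested genes was -0.02.

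**Figure D1:**
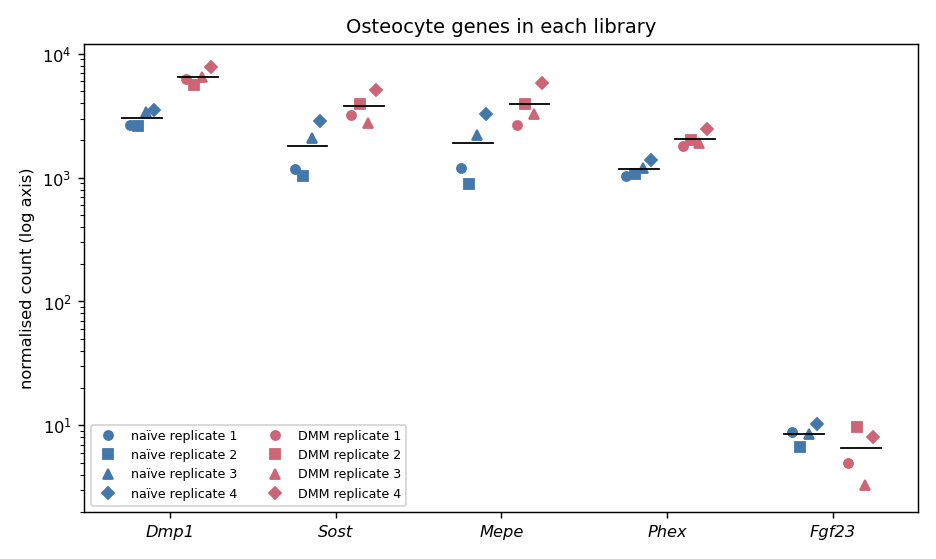
Normalised count (log axis) of each osteocyte gene in every library, with naïve libraries in blue, DMM libraries in red, 1 symbol per replicate number and a black line at the group mean. The groups are apart for Dmp1 and Phex, overlap for Sost and Mepe, and lie between 3.29 and 10.2 normalised counts for Fgf23.

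Dmp1 stood at 2643, 2600, 3364 and 3535 normalised counts in naïve mice 1 to 4 and at 6224, 5593, 6465 and 7884 in DMM mice 1 to 4. Every DMM library lay above every naïve library, and the spread within each group was small, with a coefficient of variation of 15.9% in naïve and 14.8% in DMM mice. The mean went from 3035 ± 484 to 6542 ± 967 (SD, n = 4 each), a logFC of 1.11 (SE 0.15, 95% interval 0.82 to 1.40, DESeq2 adjusted p = 2.53e-11). The call held in each of 8 fits that left out 1 library and under 8 other settings.

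Phex, the endopeptidase gene, stood at 1025, 1064, 1202 and 1386 normalised counts in naïve mice and at 1804, 1998, 1918 and 2480 in DMM mice. Its groups did not overlap either. The mean went from 1169 ± 163 to 2050 ± 298 (SD, n = 4 each), a logFC of 0.81 (SE 0.14, 95% interval 0.53 to 1.09, DESeq2 adjusted p = 8.11e-07), and this call also held in all 8 fits without 1 library and under the 8 other settings. Groups that did not overlap, with DMM higher, were found for 2 of the 5 osteocyte genes and for 11.9% of all tested genes. Non-overlap with DMM lower was found for 0 of the 5 and for 10.3% of tested genes.

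Sost, the sclerostin gene, stood at 1170, 1039, 2097 and 2890 normalised counts in naïve mice and at 3229, 3918, 2750 and 5137 in DMM mice. The groups overlapped, since naïve 4 lay above DMM 3, and naïve 1 and 2 were below the remaining libraries. The mean went from 1799 ± 866 to 3759 ± 1036 (SD, n = 4 each), a logFC of 1.06 (SE 0.40, 95% interval 0.28 to 1.85, DESeq2 adjusted p = 0.0381). The fold was close to that of Dmp1, but the coefficient of variation in naïve mice was 48.2%. The call was lost without naïve 3 (DESeq2 adjusted p = 0.0815), DMM 1 (0.0764), DMM 2 (0.109) or DMM 4 (0.136), while the logFC stayed between 0.88 and 1.39.

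Mepe, the second SIBLING gene of the set, stood at 1192, 893, 2215 and 3263 normalised counts in naïve mice and at 2662, 3965, 3291 and 5831 in DMM mice. As for Sost, naïve 1 and 2 were lowest and naïve 4 reached into the range of the DMM libraries. The mean went from 1891 ± 1076 to 3937 ± 1370 (SD, n = 4 each), a logFC of 1.06 (SE 0.48, 95% interval 0.12 to 2.0). Its p of 0.0278 in the DESeq2 fit became an adjusted p of 0.0981, so the difference was not called. Without naïve 4 it was called, at a logFC of 1.46 (DESeq2 adjusted p = 0.00765).

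Fgf23, the phosphate hormone gene, had 10, 5, 8 and 9 estimated counts in naïve libraries and 6, 9, 4 and 9 in DMM libraries. These are sums of 32 and 28 counts over 4 libraries each. Its normalised count was 8.55 ± 1.46 in naïve and 6.52 ± 2.91 in DMM mice (SD, n = 4 each), with overlapping groups. The logFC was -0.42 (SE 0.59, 95% interval -1.59 to 0.74, unadjusted p = 0.479 in the DESeq2 fit), and DESeq2 gave no adjusted p because the mean count fell below its filter. A change was not detectable at this depth. The upper end of the interval lies below the logFCs of Dmp1, Sost, Mepe and Phex, but the difference between Fgf23 and these genes was not tested.

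Levels were compared between genes per kilobase of exon, in normalised counts. In naïve libraries the level per kilobase was highest for Mepe (1124 ± 640) and Dmp1 (1098 ± 175), followed by Sost (871 ± 419), Phex (186 ± 25.9) and Fgf23 (4.72 ± 0.805) (SD, n = 4 each). In DMM libraries the order was Dmp1 (2367 ± 350), Mepe (2341 ± 815), Sost (1819 ± 502), Phex (326 ± 47.3) and Fgf23 (3.59 ± 1.6). The ranges of Dmp1, Mepe and Sost over the 4 libraries of a group overlapped in both groups. Library by library, Mepe lay above Sost in 8 of 8 libraries and Dmp1 above Sost in 7, while Dmp1 and Mepe had no fixed order. Phex lay below these 3 genes and Fgf23 below Phex in every library. The 5 genes together took between 0.0333% of all counts in naïve 2 and 0.163% in DMM 4.

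The 4 abundant genes also varied together among mice of 1 group. The deviation of each library from its group mean on the scale of log2(normalised count + 1) was largest for Mepe, at -0.90 in naïve 2 and 0.97 in naïve 4, and for Sost, at -0.66 and 0.81 in the same libraries. For Phex it ran from -0.18 to 0.29 and for Dmp1 from -0.21 to 0.28. Naïve 4 and DMM 4 had the highest value of each of the 4 genes in their group. Over the 8 libraries, the deviations of Sost and Mepe had a Pearson r of 0.97 (exact permutation test within groups, two-sided p = 0.00521, adjusted over 6 pairs p = 0.0156) and a Spearman rho of 0.93 (exact permutation p = 0.0139, adjusted p = 0.0556). Without the 2 libraries farthest from the median of Sost, r was 0.92. The ratio of Mepe to Sost stayed between 0.82 and 1.20 in the 8 libraries.

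For Mepe and Phex, r was 0.92 (rho 0.88, exact permutation p = 0.00521 for r and 0.0208 for rho), and it was 0.95 without naïve 2 and naïve 4. For Sost and Phex, r was 0.89 (rho 0.86, exact permutation p = 0.0104 and 0.0278), and 0.87 without the same 2 libraries. After adjustment over the 6 pairs, r passed for these pairs at p = 0.0156 and 0.0208 by the exact permutation test, and for Dmp1 with Phex (r = 0.86) and Dmp1 with Mepe (r = 0.84) at 0.0479, but not for Dmp1 with Sost (r = 0.82, p = 0.059). The rho of these 3 pairs was 0.69, 0.71 and 0.71, with exact permutation p of 0.0903, 0.0764 and 0.0764. No rho passed after adjustment (p from 0.0556 to 0.0903). The relations of Dmp1 rested partly on naïve 4 and DMM 4, without which r was 0.57 with Phex, 0.65 with Mepe and 0.59 with Sost.

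**Figure D2:**
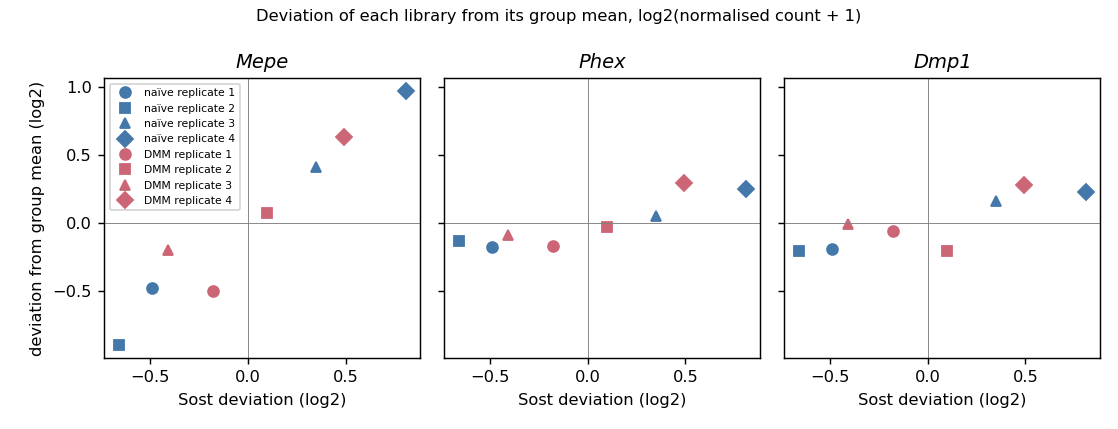
Deviation of each library from its group mean on the scale of log2(normalised count + 1), for Mepe, Phex and Dmp1 (vertical axes) against Sost (horizontal axis), with naïve libraries in blue and DMM libraries in red. Mepe rises with Sost over the widest range, from -0.90 in naïve 2 to 0.97 in naïve 4, and naïve 4 and DMM 4 are the highest of their group in each panel.

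The libraries low in Sost and Mepe also differed in markers of other cells. Summed erythroid markers were 231908 and 281245 normalised counts in naïve 1 and 2 and 161786 and 141941 in naïve 3 and 4. Among DMM libraries they were highest in DMM 3, at 158366, where Sost was lowest, and 72969 to 77948 in the remaining libraries, which include DMM 1, where Mepe was lowest. Over deviations from the group means, the median Pearson r with the 6 erythroid markers was -0.8 for Sost and -0.65 for Mepe. With the 5 endothelial markers it was 0.82 and 0.73, and single markers ran from -0.04 to 0.94 and from -0.1 to 0.95. The part of these cells in the spread of Sost and Mepe was not tested. Among 13193 other genes, Sost ranked 11 in likeness to Mepe and Mepe ranked 17 in likeness to Sost, so such likeness over 8 libraries was not particular to the pair. The remaining pairs ranked lower. In likeness to Phex, Mepe ranked 32, Sost 73 and Dmp1 142, and in likeness to Dmp1, Phex ranked 243, Mepe 300 and Sost 415. Phex ranked 107 in likeness to Mepe and 216 to Sost, and Dmp1 ranked 334 and 513. The most alike gene was Haus1 for Dmp1 (r = 0.992), Tg for Sost (0.983), Uggt2 for Mepe (0.988) and Gm5483 for Phex (0.982).

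To place the 5 genes beside the rest of their cell type, 8 further genes enriched in osteocytes were followed in the same fit. Of these, 4 were called higher and 0 lower, with a median logFC of 0.72. Pdpn, which encodes the podoplanin of osteocyte dendrites, rose by 1.54 (DESeq2 adjusted p = 7.68e-04), the homeobox gene Irx5 by 1.36 (9.42e-10) and Gja1, which encodes the gap junction protein connexin 43, by 0.93 (1.45e-11). Fbln7, a fibulin gene, rose by 1.25 (DESeq2 adjusted p = 0.0396), but was called in only 3 of the 8 fits that left out 1 library and lost its call without naïve 1 (0.113), naïve 2 (0.116), naïve 3 (0.0795), DMM 1 (0.135) or DMM 3 (0.133). Among DMM libraries, Pdpn and Fbln7 were highest in DMM 3 and next in DMM 1. The synovial and tendon markers Thy1, Pdgfra, Cd248, Tnmd and Scx had the same order at the top. Irx5 and Gja1 were highest in DMM 4, as were Dmp1, Sost, Mepe and Phex. Which cells gave the Pdpn and Fbln7 transcripts was not tested.

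The other 4 of these genes were not called. The potassium channel gene Kcnk2 had a logFC of 0.51 (DESeq2 adjusted p = 0.053) and was called without naïve 3 (0.0499) or DMM 3 (0.00318). Ptprz1, a receptor phosphatase gene, had 0.29 (DESeq2 adjusted p = 0.383) and Capg, an actin-capping protein gene, 0.08 (0.701). Dkk1, which encodes a second secreted Wnt inhibitor made by osteocytes, stood at 892 ± 344 normalised counts in naïve and 880 ± 376 in DMM mice (SD, n = 4 each), with a logFC of -0.02 (SE 0.40, DESeq2 adjusted p = 0.984) whose sign changed with the scaling. Whether Dkk1 and Sost differed in their response was not tested.

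The neighbours of Dmp1 and Mepe in the chromosome 5 cluster gave a similar picture, as 2 of 3 were called higher. Ibsp went from 8953 ± 1619 to 24145 ± 12838 normalised counts, a logFC of 1.43 (DESeq2 adjusted p = 0.00386), and Spp1 from 14315 ± 2186 to 24450 ± 5756, a logFC of 0.77 (DESeq2 adjusted p = 2.05e-04) (SD, n = 4 each). Neither gene overlapped between groups. Both are also made by cells other than osteocytes, among them osteoblasts and hypertrophic chondrocytes. Dspp, known mainly from teeth, had at most 2.47 normalised counts in any library.

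Fgf23 was near the limit of detection, but several genes that act on FGF23 or respond to it were not. Of 15 such genes 11 had an adjusted p, and 3 were called higher and 0 lower, with a median logFC of 0.33 over the 11. Pth1r, the parathyroid hormone receptor gene, rose from 811 ± 78.8 to 1848 ± 197 normalised counts (SD, n = 4 each), a logFC of 1.19 (DESeq2 adjusted p = 1.25e-19). Fgfr1, a receptor gene for FGF23, rose by 1.09 (DESeq2 adjusted p = 5.87e-09), and Fam20c, which encodes the kinase that phosphorylates FGF23 and the SIBLING proteins, by 0.97 (1.24e-06).

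The remaining genes of this list, among them those that cleave or protect the hormone, were not called. Furin, a protease gene, and Fgfr3 had logFCs of 0.32 and 0.37 (DESeq2 adjusted p = 0.0304 and 0.0305), under the fold threshold. Galnt3, which encodes the enzyme that protects FGF23 from cleavage, had 0.16 (DESeq2 adjusted p = 0.573) and Kl, the co-receptor gene, -0.35 (0.545) at 61.0 ± 20.3 and 48.1 ± 21.2 normalised counts (SD, n = 4 each). Vdr, Egr1, Slc20a1 and Slc20a2 were not called. Slc34a1, Slc34a3, Cyp27b1 and Cyp24a1, which act mainly in the kidney, had at most 5.32 normalised counts in any library and no adjusted p.

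On the side of sclerostin, 5 of 12 genes of its receptors, of Wnt readouts and of regulators of Sost were called higher and 0 lower, and the median logFC of the 11 with an adjusted p was 0.54. The Wnt readouts were called, with logFCs of 1.29 for Nkd2 (DESeq2 adjusted p = 3.69e-09), 0.99 for Lef1 (6.17e-06), 0.74 for Tcf7 (6.14e-04) and 0.61 for Axin2 (0.0234). Nkd2, Lef1 and Tcf7 kept their calls in each of the 8 fits without 1 library. Axin2 lost its call without naïve 1 (DESeq2 adjusted p = 0.122), naïve 2 (0.084), DMM 1 (0.0951), DMM 2 (0.0726) or DMM 3 (0.082). Sost, the inhibitor, and these readouts of the pathway it inhibits were thus all called higher in the DMM group. The calls of Sost and Axin2 were the least stable, held in 4 and 3 of the 8 fits without 1 library. The count of Lef1 is uncertain to the extent that 14.6% of its 31-base words also occur in transcripts of other genes. The same limit holds for other genes of these lists, among them Spp1 (14.3%), Fgfr3 (14.9%), Kcnk2 (10.6%), Ifitm5 (27.2%), Hdac4 (21.9%) and Sik2 (19.4%).

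Of the receptors, Lrp6 had a logFC of 0.59 (DESeq2 adjusted p = 1.03e-04), just past the fold threshold, and fell under it without naïve 1, 2 or 3 (0.58 each) or DMM 3 (0.47). Lrp5, at 0.49 (DESeq2 adjusted p = 0.00217), and Lrp4, which presents sclerostin to its co-receptors, at 0.37 (0.0253), passed the adjusted p but not the fold threshold. The same held for Mef2c, a transcription factor that drives Sost through a distant enhancer, at 0.54 (DESeq2 adjusted p = 0.00137), which was called without naïve 4 (0.60), DMM 1 (0.60) or DMM 2 (0.59). Hdac4, Hdac5 and Sik2, regulators of Mef2 activity, had logFCs of -0.08, 0.13 and 0.06 (DESeq2 adjusted p from 0.622 to 0.724), and the sign of Hdac4 turned under scaling by the total count. Sostdc1, a paralogue of Sost, had at most 2.49 normalised counts.

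**Figure D3:**
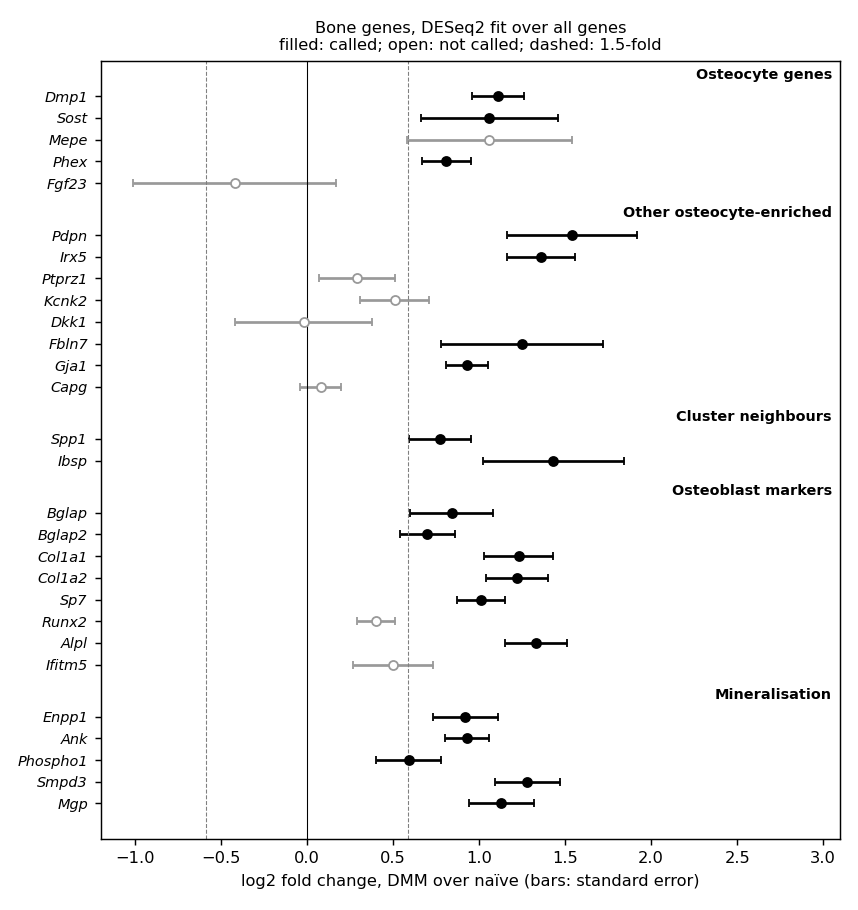
Log2 fold change (DMM over naïve) of each gene in the DESeq2 fit over all genes, with its standard error as bars, for the osteocyte genes and for 4 lists of bone genes. A gene shared by lists is drawn once, in the first of them, and of the genes without an adjusted p only Fgf23 is drawn. Filled points were called, open points were not, and dashed lines mark a 1.5-fold change. Dmp1 (1.11), Sost (1.06) and Mepe (1.06) lie at like values with unlike standard errors (0.15, 0.40 and 0.48), amid osteoblast markers with a median of 1.01.

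Osteocyte genes were then set beside genes of osteoblasts, the cells osteocytes arise from. Of 9 osteoblast markers 7 were called higher and 0 lower, with a median logFC of 1.01. Alpl, the alkaline phosphatase gene, rose by 1.33 (DESeq2 adjusted p = 1.98e-11), the type I collagen genes Col1a1 and Col1a2 by 1.23 and 1.22 (4.53e-08 and 6.62e-09) and the osteoblast transcription factor gene Sp7 by 1.01 (6.10e-10). Runx2, at 0.40 (DESeq2 adjusted p = 0.00273), stayed under the fold threshold, and Ifitm5 (0.50, 0.115) did not pass. The osteocalcin genes Bglap and Bglap2 rose by 0.84 and 0.70 but their counts are uncertain, as 62.9% and 95.2% of their 31-base words are found in other genes. Bglap2 fell under the fold threshold without naïve 4 (0.57).

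All 6 mineralisation genes tested were called higher, with a median logFC of 1.03. Besides Alpl they were Smpd3 (1.28), Mgp (1.13), Ank (0.93) and Enpp1 (0.92), which encode a sphingomyelinase, a calcification inhibitor, a pyrophosphate transporter and a pyrophosphate-producing enzyme, and Phospho1 (0.59). Phospho1, a phosphatase gene that shares 87.1% of its words with other genes, lost its call without naïve 3 (0.56), naïve 4 (0.44) or DMM 1 (0.52). Of 8 osteoclast markers 1 was called higher, Ocstamp (logFC 0.89, DESeq2 adjusted p = 0.0069). The osteoclast enzyme genes Acp5 and Ctsk had logFCs of 0.51 and 0.55 (DESeq2 adjusted p = 0.0601 and 0.0664), and both were called without naïve 4 (0.66 and 0.77) or without DMM 2 (0.64 and 0.68).

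Relative to the summed osteoblast markers, Dmp1, Sost and Mepe differed between the groups by less than the spread between mice, and Phex by about that spread. The log2 ratio to that sum differed between DMM and naïve libraries by -0.14 for Dmp1 (pooled SD 0.43), -0.10 for Sost (0.78), -0.07 for Mepe (0.91) and -0.44 for Phex (0.43), and the groups overlapped for each. No test was made on these ratios, and single libraries moved them: without naïve 2 the difference was -0.38 for Dmp1, -0.50 for Sost, -0.54 for Mepe and -0.66 for Phex, and without naïve 4 it was 0.02, 0.25, 0.34 and -0.27. Type I collagen makes up most of the sum, and without Col1a1 and Col1a2 the difference was 0.04 for Sost (pooled SD 0.54), 0.07 for Mepe (0.60) and -0.30 for Phex (0.25), the last a little more than the spread. The largest marker in that smaller sum was Ibsp, which hypertrophic chondrocytes also make, at a mean of 8953 normalised counts in naïve and 24145 in DMM libraries. Which cells gave either sum was not tested. Naïve 2 stood lowest of the naïve libraries for all 4 genes against the full sum, with -7.01 for Dmp1 and -8.55 for Mepe, and it also had the highest osteoblast sum of that group, 335156. Over deviations from the group means, the median Pearson r with the 9 osteoblast markers was -0.09 for Dmp1, -0.31 for Sost, -0.43 for Mepe and -0.38 for Phex. Single markers differed widely, with r from -0.5 to 0.9 for Dmp1 and from -0.74 to 0.79 for Mepe. For Fgf23 the log2 ratio differed by -1.75 (pooled SD 0.74) and the groups did not overlap, but it rests on 4 to 10 counts per library and on a denominator that rose.

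**Figure D4:**
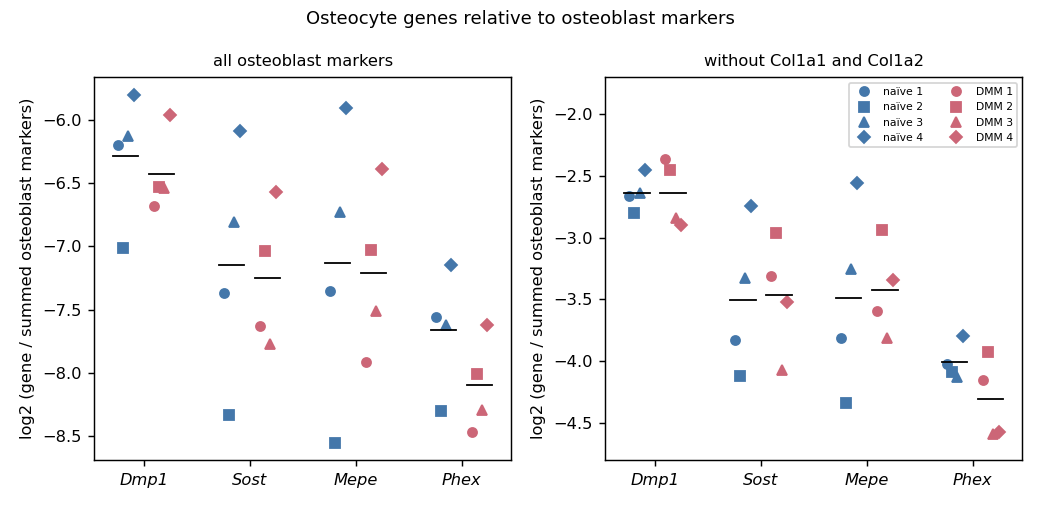
Log2 ratio of each abundant osteocyte gene to the summed normalised count of the osteoblast markers in every library, with all 9 markers (left) and without Col1a1 and Col1a2 (right). Naïve libraries are blue, DMM libraries red, and a black line marks the group mean. The groups overlap for each gene in both panels.

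The ratios of the osteocyte genes to each other were not tested. The ratio of Dmp1 to Phex in normalised counts was 2.58, 2.44, 2.80 and 2.55 in naïve mice and 3.45, 2.80, 3.37 and 3.18 in DMM mice. The groups met at 2.80, in naïve 3 and DMM 2, and the remaining DMM libraries lay above the naïve ones. The ratio of Mepe to Dmp1, in contrast, ran from 0.34 to 0.92 in naïve and from 0.43 to 0.74 in DMM mice, so that the proportions of the 2 SIBLING genes differed more among naïve mice than between the groups.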

How the data were processed

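Libraries from 8 mice were analysed. The authors trimmed reads with Trimmomatic, pseudo-aligned them with Kallisto and summed transcripts to genes with tximport, and deposited estimated counts per gene, of which 28.9% of values were not whole (tolerance 0.01). The submitters' processing notes list kallisto, DESeq2 and GRCh38, although identifiers are mouse, and the methods name GRCm38. The labels name a library kit from NEB and the methods a SMART-Seq kit, and strandedness is not given in the sources used here. Libraries were grouped by their labels.

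Here the estimated counts were rounded and tested in DESeq2 1.42.0 under R 4.3.3 (size factors from the median of ratios, Wald test, no covariates, Benjamini-Hochberg adjustment over all genes tested). tximport length offsets were not used. Alternatives were edgeR 4.0.16, limma-voom 3.58.1, TMM factors, total count scaling, other filters, no fold threshold, the replicate number as a block and leaving out each library. Total count scaling without the most abundant identifier was chosen after seeing the data. The fits were also run on counts simulated from the means and spreads fitted here. Such counts check the fitting and cannot show differences in tissue make-up between the groups.

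The osteocyte genes, the other gene lists and the naming rule were chosen with earlier results of these data known. The rule names the 5 osteocyte genes, members of the lists, and for each osteocyte gene whose mean was 10 normalised counts or more the 3 genes of mean 50 or more whose deviations from the group means were most alike over 8 libraries. Symbols were found for 48855 of 50462 identifiers, which held 86.6% of counts. Within groups, pairs of libraries differed by more than counting noise. Shared words are 31-base words of GENCODE vM21 transcripts found in another gene on either strand. Of the 31-base words of the osteocyte genes, at most 1.39% (Phex) were shared. Intervals give the uncertainty of the estimated group difference under the fitted spread between these mice, and are not a range over mice. Motif counts cover all RefSeq promoter windows given for GRCm38.p6. No protein sequences were used here.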

Additional observations from a re-analysis of the deposited data

Results flagged for a closer look

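Dixon's test for a lone distant library was run on 238 groups of 4 values and was passed by 18, with about 11.9 expected by chance. No value of Dmp1, Sost, Mepe, Phex or Fgf23 was among them. Among the pathway and bone genes named above, 5 groups were: Fam20c at 1466 normalised counts in DMM 1 (other DMM libraries 1120 to 1149), Fgfr1 at 5591 in DMM 4 (4808 to 4934), Phospho1 at 947 in DMM 1 (769 to 795), Lrp4 at 1501 in naïve 2 (other naïve libraries 1755 to 1797) and Lrp6 at 1729 in naïve 4 (1523 to 1541).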

How the results depend on the processing

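Dmp1 and Phex kept their direction and their call under every setting run, and for Fgf23 only the fit with no independent or Cook's filter gave an adjusted p (DESeq2, 0.97), so no other setting could call it. Sost lost its call with no independent or Cook's filter (log2 fold change, logFC, 1.06, adjusted p = 0.0738) and with the total count without the largest identifier as size factor (1.07, 0.0628), and without single libraries its logFC ran from 0.88 to 1.39 (DESeq2 adjusted p from 1.35e-06 to 0.136). Mepe ran from 0.81 to 1.46 without single libraries (DESeq2 adjusted p from 0.00765 to 0.27) and had an adjusted p of 0.0776 in edgeR and 0.0546 in limma-voom. The replicate numbers shared by the groups did not pair the libraries, since correlations of the deviations of same-numbered libraries were 0.05, 0.058, -0.119 and 0.117. The replicate block gave 2081 called genes, and under it Mepe was called at a logFC of 1.17 (DESeq2 adjusted p = 2.72e-05), 3 erythroid markers were called lower and 3 genes of the sclerostin list higher. Of all genes, 2429 were called, 4010 (1989 lower) with no fold threshold and 1858 to 2842 without single libraries. With total counts as size factors 489 genes were called lower, so that 80.6% of calls were higher against 56.7%, as it moved the median logFC from -0.01 to 0.14. It also called 4 osteoclast markers. The most abundant identifier took 10.1% to 17.9% of counts in naïve and 4.31% to 8.65% in DMM libraries. With that identifier left out of the total count, the median logFC was 0.01 and 60.6% of calls were higher. In that setting 928 genes were called lower and 1 osteoclast marker was called higher. With no fold threshold 5 FGF23 pathway, 8 sclerostin list and 4 endothelial genes were called higher. Without single libraries 2 to 4 of the 5 osteocyte genes were called higher, the sclerostin list gave 3 to 6 calls, osteoclast markers 1 to 4 and endothelial markers 0 to 3 higher, and erythroid markers 3 to 6 lower. Genes near 0 changed sign: Dkk1 under TMM (0.0118) or total count (0.1233) scaling and when single libraries were left out (-0.35 to 0.15), Slc20a1 likewise (0.0010, 0.12, and -0.10 to 0.0726), and Hdac4 under total count scaling (0.0758). For each of these changes the cause was not tested. At 4 to 10 counts, depth limits what can be said of Fgf23.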

Other observations

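Genes whose deviations from the group means were most alike to an osteocyte gene over the 8 libraries, among 13194 candidates, were mostly not bone genes. For Dmp1 they were Haus1 (r = 0.992), Ntrk3 (0.981) and Nebl (0.977), and for Sost they were Tg (0.983), Gm48418 (0.981) and Klhl3 (0.979). For Mepe they were Uggt2 (0.988), Gm48415 (0.988) and Gm26621 (0.983), and for Phex Gm5483 (0.982), Gm26621 (0.969) and Syt11 (0.964). Genes alike within groups differed in their group difference. Tg was 498 normalised counts in naïve and 924 in DMM mice (log2 fold change 0.89, DESeq2 adjusted p = 0.00427), Nebl and Uggt2 were higher in the mean as well (0.65 and 0.46, DESeq2 adjusted p = 0.0499 and 0.0481), Ntrk3 and Gm5483 were lower in DMM (-0.78 and -0.84, DESeq2 adjusted p = 0.0347 and 0.00132), and the adjusted p of the remaining genes lay between 0.385 and 0.956. These genes were the highest of many, so the values of r are a description.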
